A study of Arabidopsis thaliana with 6 samples.

Results

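Among the genes that the study listed as candidate targets of ATH1, 125 share their ATH1 binding site with a listed neighbor, which is 19.9% of the list (504 other genes). A site was defined as a stretch of bases lying under a peak in all 3 ATH1-GFP libraries and touching no peak of the 3 wild-type libraries. Each listed gene comes with a window around its coding sequence, and a shared site lay wholly inside exactly 2 such windows. Of 320 sites in the genome, 66 were kept as shared, and they joined 65 gene pairs. The pairs held 127 genes, of which *SMT2* and *HB25* were not counted as members because each also has a site in its window alone. Another 8 sites inside 2 windows belong to pairs that hold a gene left out by name and were not analysed here. Sites, and thus members, were chosen by the peak calls of all 6 libraries, so these counts are a description.

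ATH1 is a BELL-type homeodomain protein of the TALE class. Proteins of this class bind DNA as partners of KNOX homeodomain proteins, and ATH1 is known in Arabidopsis for its roles at the shoot apex, where it holds back growth of the stem in the rosette and helps to form the boundary at the base of organs. Genes lie close together in the Arabidopsis genome, so a bound site in the space between neighbors is often within reach of both. Peak calls alone cannot tell which of the neighbors, if either, responds to the protein, and expression was not measured in these libraries.

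The ATH1-GFP plants were *ath1-3* mutants carrying *pATH1:ATH1-GFP*, a genomic fusion of ATH1 to GFP driven by its own promoter, so ATH1-GFP was made only where that promoter is active, and they descended from a single transgenic line in which the fusion complements the mutant. The wild-type plants carried no GFP and served as controls for the precipitation, which used anti-GFP magnetic beads in every library. Each group had 3 biological replicates of seedling shoots from which leaves and roots had been removed. The sample labels name Landsberg erecta as the wild type and give 2 weeks of growth with 16 h of light, whereas the series description and the methods of the study name Columbia, and the methods describe short days and a longer growth. The peak lists could not settle this difference.

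Each ATH1-GFP library retained 10194418 to 15584829 tags once duplicates were removed and gave 1029 to 1634 peaks, and each wild-type library 3450182 to 13518524 tags and 361 to 688 peaks. All 3 ATH1-GFP libraries had a peak over 743 stretches, of which 43.1% were free of wild-type peaks. Depth differed between libraries and was lowest in wild-type replicate 1, and its part in the wild-type exclusion was not tested beyond leaving it out, which left 66 shared sites. In ATH1-GFP replicate 3, the most deeply sequenced library, fold enrichment was generally lowest: its median over all peaks was 1.90, against 2.18 and 2.20 in replicates 1 and 2. Fold enrichment here is the ratio of tags piled up at the peak summit to the local background of the same library, as called by the peak finder MACS without a control library.

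The strongest shared site was that of AT2G01990, of unknown function, and *GAD3*, which encodes a glutamate decarboxylase, an enzyme that makes GABA. On TAIR10, the genome build of the files, it covered chr2:468158-468644. Replicates 1, 2 and 3 of ATH1-GFP, the order kept for all values that follow, gave a fold enrichment of 6.22, 5.09 and 3.27, with a mean of 4.86 ± 1.49 (SD, n = 3). Only 8 of the 320 sites in the genome had a higher mean. The next site, at chr2:11297005-11297411, was shared by *PLA2A*, a patatin-like lipase, and *WEB1*, a coiled-coil protein that maintains the speed of chloroplast movement. It gave 4.82, 4.80 and 3.34, and replicates 1 and 2 were nearly equal while replicate 3 was lower, as at most sites below.

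The third site, at chr3:8499174-8499559, was shared by *RTFL13* and *DVL21*, 2 genes of the same DVL/ROTUNDIFOLIA family of small peptides. Overexpression of these peptides restricts cell proliferation in leaves and other organs. Fold enrichment at the site was 4.52, 3.63 and 3.15, with a mean of 3.77 ± 0.69 (SD, n = 3). A site at chr4:7868851-7869205 was shared by AT4G13530 and AT4G13540, both of unknown function, and gave 4.05, 3.60 and 2.81. Replicate 3 was the lowest library at both sites, and its value stayed above the median of shared sites in every library. The gene pair *TPR4*, a tetratricopeptide repeat protein, and AT1G04540, a CaLB-domain lipid-binding protein, had values of 3.79, 3.89 and 2.36 at chr1:1236293-1236715.

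*THO1* and *CESA5* were the only pair with 2 shared sites, 367 nt apart. *THO1* is a subunit of the THO complex, which links transcription to mRNA export, and *CESA5* is a cellulose synthase of primary cell walls. At the stronger site, chr5:3071176-3071604, fold enrichment was 3.80, 3.52 and 2.34 (mean 3.22 ± 0.77 SD, n = 3). The weaker site, chr5:3071972-3072248, gave 2.19, 1.89 and 1.98, and here replicate 2, not replicate 3, was the lowest. *CESA5* shared another site, chr5:3078506-3078955, with AT5G09876, a gene of unknown function on its other side, with 2.40, 2.46 and 1.72. *CESA5* therefore shared a site with the neighbor on each side. The closest Arabidopsis relative given in its description, *CESA6* (AT5G64740), was also listed and had a site in its window alone, with 4.70, 4.66 and 3.66.

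Of the remaining sites among the highest 10, the one at chr2:7641131-7641451 was shared by AT2G17556, of unknown function, and *HMGB4*, a high-mobility-group chromatin protein, and gave 3.82, 3.14 and 2.38. At chr1:4092898-4093256, shared by *ELP*, an extensin-like protein, and AT1G12100, a lipid-transfer-like protein of the same broad superfamily, the values were 3.26, 2.94 and 2.44. These sites repeated the order seen above, highest in replicate 1 and lowest in replicate 3. *SMZ*/*TON1A* and the SAUR pair, which complete the highest 10, are described with the regulators.

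**Figure D1:**
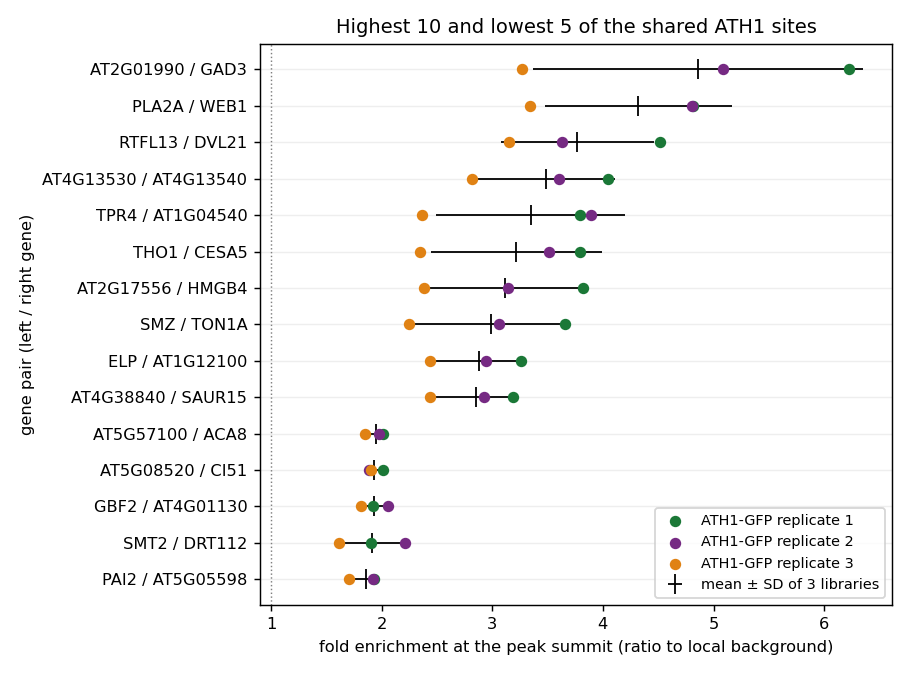
Fold enrichment at the 10 strongest and the 5 weakest shared sites. Each line is a gene pair, colored points are the 3 ATH1-GFP libraries, and the black tick and bar are their mean and SD on a linear axis, with the dotted line at a ratio of 1. The strongest site, AT2G01990/GAD3, ranged from 3.27 to 6.22, while the 5 weakest had means from 1.85 to 1.94.

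At the other end, the lowest mean belonged to the site shared by *PAI2*, an enzyme of tryptophan synthesis from a family of nearly identical copies, and AT5G05598, of unknown function. It gave 1.93, 1.92 and 1.71 at chr5:1669465-1669691 (mean 1.85 ± 0.13 SD, n = 3). Reads from *PAI* genes may be split among copies, so this value is uncertain. The site of *SMT2*, a sterol methyltransferase, and *DRT112*, a plastocyanin of photosynthetic electron transport, was only 46 nt long and had 1.90, 2.22 and 1.61. It was the only shared site that did not reach a −log10 q of 3 in every library, with 2.64 in replicate 3.

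*GBF2* and AT4G01130, a GDSL-type lipase, shared a site with 1.93, 2.06 and 1.81 at chr4:484781-485259. AT5G08520, a MYB-related protein, and *CI51*, a subunit of mitochondrial complex I, gave 2.01, 1.89 and 1.91. AT5G57100, a nucleotide-sugar transporter, and *ACA8*, a calcium pump of the plasma membrane, gave 2.01, 1.97 and 1.85. At these weak sites the 3 libraries lay close together, with SDs between 0.07 and 0.12 for the 3 pairs just named. Across all 66 shared sites the mean fold enrichment had a median of 2.27 and ran from 1.85 to 4.86, and 7 sites exceeded 3 while 5 were below 2.

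Transcription factor genes made up 15 of the 125 members, or 12.0%. The same list held 13.4% of all listed genes and 20.7% of the 188 genes with a site in their window alone. No pair joined 2 transcription factor genes, and no expected number was worked out for so small a share of genes. All 15 had a neighbor of another kind, as did *HB25*, which is not a member. *AP3*, a MADS-box gene that specifies petals and stamens, shared the site chr3:20121358-20121641 with *emb1967*, an FHA-domain gene required in the embryo. Its fold enrichment was 2.79, 2.60 and 1.83 (mean 2.41 ± 0.51 SD, n = 3). *SMZ*, an AP2-type repressor of flowering, shared chr3:20378814-20379206 with *TON1A*, which organizes the cortical microtubules that mark the division plane, and the site gave 3.66, 3.06 and 2.25. This was the strongest site of a transcription factor gene, and among those named here its replicate 1 value was the highest.

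*HAT1*, a homeodomain-leucine zipper protein of class II, a group that responds to shade, shared a site with AT4G17453, of unknown function, at chr4:9738547-9738758. The 3 libraries gave 2.37, 2.49 and 2.00, but their summits were spread over 546 nt, against a median spread of 73 nt among shared sites. Only the summit of replicate 2 fell inside the site. The summit of replicate 1, at 9738201, lay before the start of the *HAT1* window at 9738273, so the 2.37 was measured outside that window. *LBD4*, a LOB-domain protein that acts in vascular development, had 2.26, 2.50 and 1.85 at chr1:11214412-11214713, a site shared with *PSAF*, a subunit of photosystem I. *WRKY2*, which acts in pollen and in the polarity of the zygote, had 2.77, 2.41 and 1.87 at a site shared with AT5G56260, described as an RraA-like protein. In each of these pairs replicate 3 was again the lowest. The site of *HB25*, a zinc-finger homeodomain gene, and AT5G65400, an alpha/beta hydrolase gene, gave 2.12, 2.02 and 1.87.

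*GBF2* and *GBF3*, bZIP proteins that bind the G-box, are each given as the best match of the other, and both were members in separate pairs on different chromosomes. *GBF3* shared the site chr2:18999653-18999967 with *LRB1*, a BTB protein of the ubiquitin ligases that act on phytochrome B and PIF3. Fold enrichment there was 2.12, 2.75 and 1.90, compared with the weak values of *GBF2* given above. Replicate 2 was the highest library at both.

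The other transcription factor genes were chosen for mention after their values were seen. AT3G07340 (*CIB3* among its RefSeq synonyms), a bHLH gene, shared a site with *CSLC6*, a cellulose-synthase-like protein, with 3.38, 2.92 and 2.12. *IDD7*, an INDETERMINATE-domain zinc finger gene, and *FRUCT5*, annotated as a beta-fructofuranosidase, shared one with 2.55, 2.80 and 2.47, which had one of the narrowest spreads among the stronger sites. Genes for a Dof protein (AT5G66940), a MYB-like protein (AT5G01380), the vessel-related *NAC076*, a bHLH protein (AT2G31730) and *GATA5* had mean fold enrichments of 2.43, 2.34, 2.26, 2.10 and 2.03. Replicate 3 gave the lowest value at all 5.

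**Figure D2:**
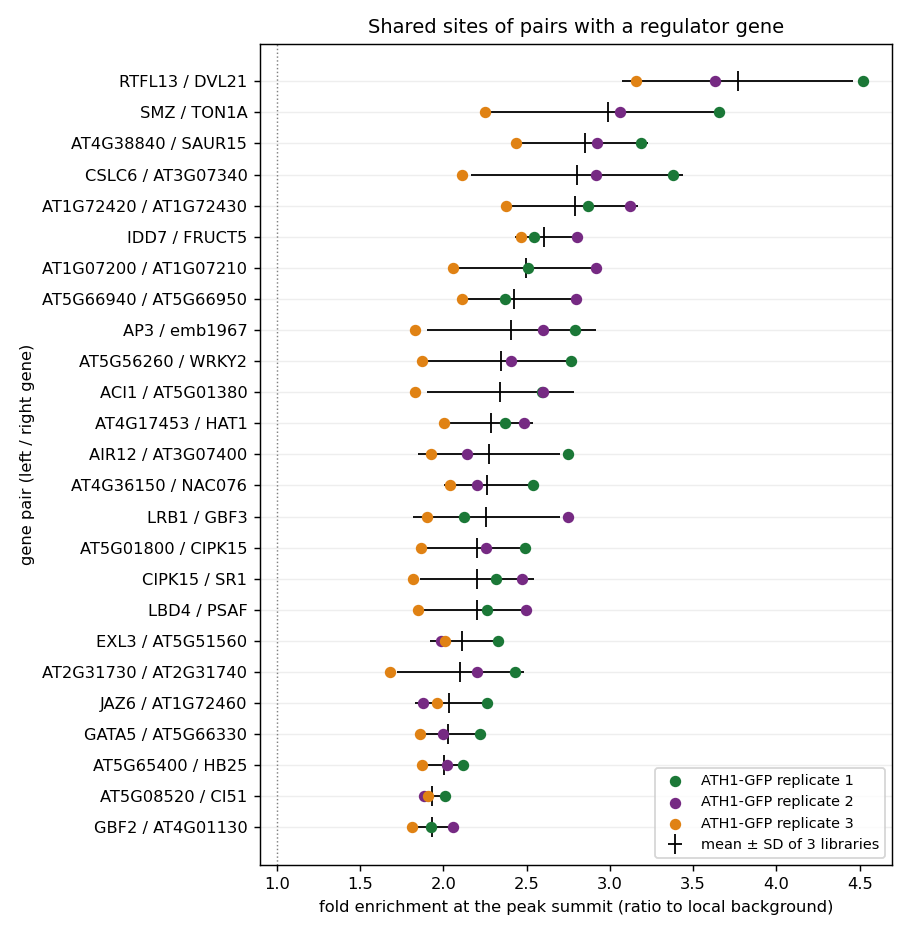
Fold enrichment at the 25 shared sites with a gene for a transcription factor, hormone response, small peptide or organ development. Points are the 3 ATH1-GFP libraries and the black tick and bar their mean and SD on a linear axis, with pairs ordered by mean. Apart from RTFL13/DVL21 at 3.77, every mean lay between 1.93 and 2.99.

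Auxin response genes were represented by 4 members in 3 pairs. AT4G38840 (*SAUR14* among its RefSeq synonyms) and *SAUR15* are neighbors of the same family of small auxin up RNAs, whose proteins promote cell expansion, and shared chr4:18125673-18126052 with 3.19, 2.92 and 2.44. Their common site had a mean of 2.85 ± 0.38 (SD, n = 3). AT1G72430 (*SAUR78* among its RefSeq synonyms) shared a site with AT1G72420, described as a complex I assembly factor of the CIA30 type, with 2.87, 3.12 and 2.38. *AIR12*, an auxin-induced cytochrome b protein, and AT3G07400, a class 3 lipase, gave 2.75, 2.14 and 1.93. The auxin list held 3.2% of members and 1.91% of all listed genes.

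Jasmonate, abscisic acid and brassinosteroid lists gave 0.8%, 1.6% and 0.8% of members, against 1.27%, 1.11% and 0.477% of all listed genes. AT1G07200 (*SMXL6* among its RefSeq synonyms), a repressor in strigolactone signaling, shared a site with AT1G07210, a ribosomal protein S18 gene, with 2.51, 2.92 and 2.06. Its best match in the listed annotation, AT2G29970, was also a listed gene. *JAZ6*, a repressor of jasmonate responses, and AT1G72460, a leucine-rich repeat kinase gene, had 2.26, 1.88 and 1.96 at chr1:27276566-27276955. The *JAZ6* site lay 488 nt from the nearest wild-type peak, and its window held 1 peak of wild-type replicate 2 and 3 of replicate 3. *EXL3*, an EXORDIUM-like gene of a family responsive to brassinosteroid, and AT5G51560, another leucine-rich repeat kinase gene, had 2.33, 1.99 and 2.01. Both of these sites were lowest in replicate 2. No member came from the ethylene (7 genes), gibberellin (4), cell cycle (2) or RNA gene (21) lists.

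*CIPK15*, a CBL-interacting protein kinase placed in calcium and abscisic acid signaling, was one of 3 genes that shared a different site with each neighbor. The site toward AT5G01800, a saposin-like protein gene, at chr5:309018-309395, gave 2.49, 2.26 and 1.86. Toward *SR1* (*CIPK14* among its RefSeq synonyms), a kinase of the same family, the site chr5:312427-312918 gave 2.32, 2.47 and 1.82. The 2 sites had the same mean, 2.20, with SDs of 0.32 and 0.34, although replicate 1 was the highest at the first and replicate 2 at the second. *CESA5* and AT3G49810 were the other genes that shared a different site with each neighbor.

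Protein kinase genes numbered 7 among the members (5.6%, against 5.09% of all listed genes), at sites with mean fold enrichments from 2.03 to 2.24. They included *NEK6*, a NIMA-related kinase that acts on cortical microtubules and directional growth, with 2.29, 2.49 and 1.89. Calcium signaling counted 4 members (3.2% against 2.23%), at sites from 1.94 to 2.20: the 2 CIPK kinases, *ACA8*, and the vacuolar calcium pump *ACA4*, with 2.43, 2.17 and 1.83. The cell wall list gave 6 members (4.8% against 3.50%) at 8 sites, with means between 2.02 and 3.22 and a median of 2.27, equal to the median of all shared sites. *XTH28*, which remodels xyloglucan, gave 2.69, 2.35 and 1.99, *FLA2*, an arabinogalactan protein, 2.01, 2.23 and 1.88, and *SHV2*, a COBRA-like protein needed for root hairs, 2.29, 2.09 and 1.83. *NEK6*, *ACA4*, *XTH28*, *FLA2* and *SHV2* were chosen after their values were seen.

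Some neighbors were of the same family. In the TAIR10 descriptions, which name the best Arabidopsis match of most genes, 1 gene of the pair was the best match of the other in 2 pairs. *BGLU43* and *BGLU44*, beta-glucosidase genes, shared chr3:6190269-6190636 with 2.06, 2.09 and 2.19. This was the only shared site whose highest value came from replicate 3, and its SD, 0.07, was among the smallest. AT4G29700 and AT4G29710, alkaline-phosphatase-like genes, gave 2.12, 2.18 and 1.91. The SAUR, CIPK and DVL pairs are also of like kind by family, though their descriptions name other genes or none as best match. These relations, and the genes of the next paragraph, were looked up after the values were seen.

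Of 106 members with a best match in their description, 16 had it among the listed genes, and 7 of those among the members themselves. For the genes with a site in their window alone, 25 of 160 had their best match among the listed genes, a similar share. The share over all listed genes was not worked out. *BGLU43*, *BGLU44* and AT4G29710 are among the 7, and their best match is their own pair neighbor. The counts are thus not read as a trait of members. A pair of related neighborhoods was bound on chromosomes 3 and 5. AT3G49800, a BSD-domain gene, and AT3G49810, an ARM-repeat ubiquitin ligase gene, shared chr3:18474067-18474430 with 2.79, 2.40 and 1.79, and their best matches are the adjacent listed genes AT5G65910 and AT5G65920. The site near those relatives, chr5:26363547-26364030, gave 3.95, 3.56 and 2.89 and just missed being a shared site, since it left the window of AT5G65910 by 15 nt. AT3G49810 shared a further site with AT3G49820 on its other side, with 2.03, 2.31 and 1.73.

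Another such case involved genes that lie next to each other. AT1G18010, a major facilitator transporter gene, and AT1G18020, a gene for an FMN-linked oxidoreductase, shared chr1:6201516-6202181 with 2.49, 2.01 and 2.43. Their best matches, AT1G18000 and AT1G17990, are the preceding listed genes, with a site at chr1:6193984-6194505 of 2.76, 2.13 and 2.40 that lay wholly in the window of AT1G17990 only. At both sites replicate 2, not replicate 3, was the lowest. Reads from close copies can be placed on either, and how such reads were handled is not given in the sources used here, so these values are uncertain. AT1G72420 and AT1G17350, both described as CIA30-type proteins, name each other as best match and stood in separate pairs. The site of AT1G17350 and AT1G17360, a relative of a COP1-interacting protein, gave 2.82, 2.03 and 1.74.

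The 21 shared sites outside the 10 highest and 5 lowest in which neither gene falls in any list had means between 2.01 and 2.83, with a median of 2.31. The highest, at AT3G62000, an O-methyltransferase gene, and AT3G62010, of unknown function, gave 3.21, 2.97 and 2.32. AT3G62620 and AT3G62630, a DUF1645 gene, shared the longest site, 912 nt, with 2.89, 2.21 and 2.30. *ARA-2*, a Rab GTPase gene, and *TPS7*, of the trehalose phosphate synthase family, gave 2.67, 2.05 and 2.25. Replicate 2 was the lowest library at these last 2 sites. *CYP708A3*, a cytochrome P450 gene, and AT1G78480, a prenyltransferase gene, gave 2.73, 2.63 and 2.25. *ARLA1D*, a small GTPase gene, and AT5G67550, of unknown function, gave 2.76, 2.34 and 1.76. At AT5G11710, a gene for an ENTH-domain protein of vesicle transport, and AT5G11700, of unknown function, the values were 2.06, 3.00 and 1.95, so replicate 2 stood apart from the other libraries there. AT4G02100, a DnaJ protein gene, and AT4G02110, annotated as a transcription coactivator, gave 3.01, 3.09 and 2.17. AT4G30790, annotated with autophagy, and AT4G30800, an OB-fold gene, gave 3.15, 2.86 and 2.10. Both were near 3 in the first 2 libraries and near 2 in replicate 3, and AT1G21810 and AT1G21830, both with domains of unknown function, had the same shape with 2.91, 3.21 and 1.74. The narrow spread at AT3G61810, a glycosyl hydrolase gene, and AT3G61820, an aspartyl protease gene, with 2.53, 2.50 and 2.26, set it apart from these.

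*PLC1*, a phospholipase C gene, and AT4G38520, a protein phosphatase 2C gene, gave 2.55, 2.20 and 1.72. AT1G11330, an S-locus lectin kinase gene, and AT1G11320, of unknown function, gave 2.29, 2.26 and 2.04, and AT5G55560, a further kinase gene, shared 2.12, 2.40 and 2.21 with AT5G55550, an RNA-binding protein gene. The last site was one of the 2 that were lowest in replicate 1. *NUDT7*, a nudix hydrolase gene that restrains defense, was the neighbor of *FLA2* and the only member of the defense list. AT5G44680, a DNA glycosylase gene, and AT5G44690, of unknown function, gave 2.43, 2.23 and 1.96. The genes of this and the previous paragraph were chosen after their values were seen. In all, 28 of 65 pairs had neither gene in a list and 8 had both, and 17 members had no short description.

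The pairs were neighbors in the annotation as well. Of 63 pairs with both loci in the RefSeq gene table of TAIR10.1, 54 were directly adjacent and 9 had 1 locus between them, which coded for protein in a single case, the locus between AT1G25275 and *TLP10*, a tubby-like protein gene. Sites came from every chromosome, with 17 on chromosome 1, 6 on chromosome 2, 13 on chromosome 3, 10 on chromosome 4 and 20 on chromosome 5. Gene orientation and exon structure were not used here, so whether a site lies upstream of both genes, or in a promoter, an intron or a UTR, is not stated.

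The stretch that both windows of a pair had in common ranged from 328 to 2871 nt, and in 17 pairs it was exactly 1501 nt. Windows may reach 1500 nt downstream of the coding sequence, but whether this sets that length was not tested. Sites were short beside the common stretch, 333.5 nt at the median with a range of 46 to 912 nt, and covered a median of 24.1% of it. By the position of their centers, 34 of 66 sites lay in the central part of the stretch (33.3% to 66.7% of its length), 23 to the left and 9 to the right, left being the lower coordinate. Because a site had to lie wholly inside the stretch, its center could not reach an edge. The share in the central part is thus partly fixed by the rule. The smallest margin to an edge was 6 nt, at *KAC2*, a kinesin-like gene for chloroplast movement, and AT5G65470, a protein O-fucosyltransferase gene, whose site had a mean of 2.10. Just outside, the site of AT1G32225 and AT1G32230 left a window by 2 nt with a mean of 2.84, and that of AT5G21090 and AT5G21100 by 3 nt with a mean of 3.06.

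**Figure D3:**
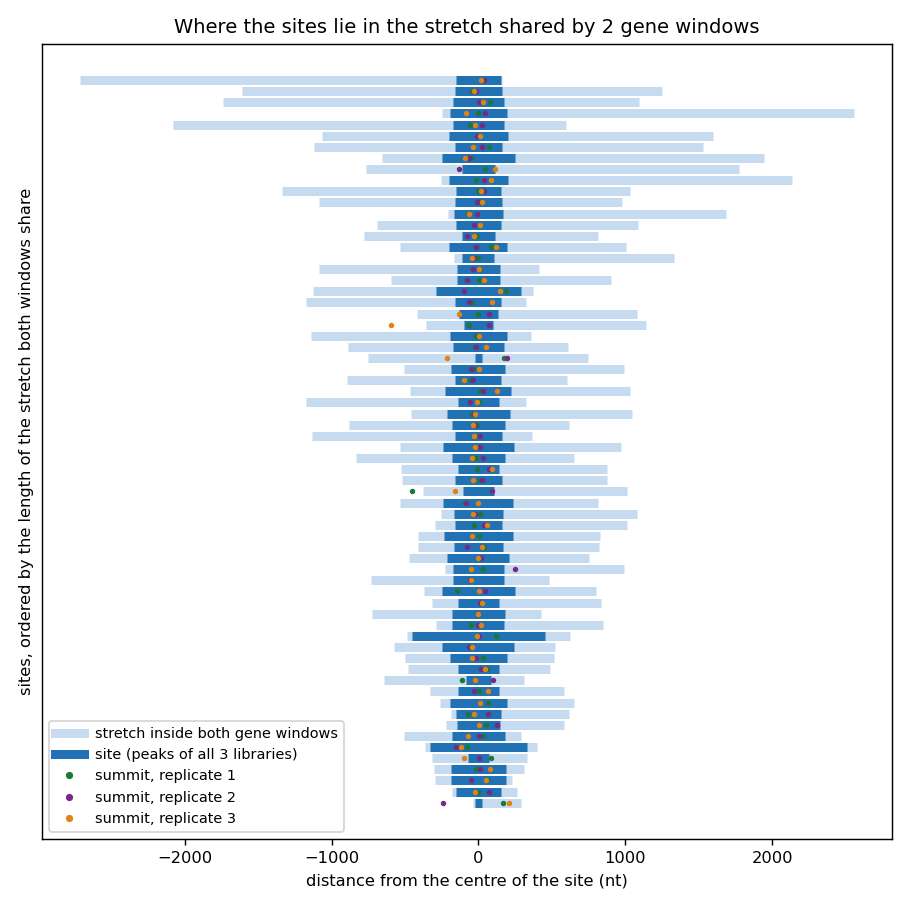
Position of the 66 shared sites. Each line is a site, centered at 0 on a linear axis in nt, with the site in dark blue, the stretch inside both gene windows in light blue, and the peak summits of the 3 ATH1-GFP libraries as colored points, ordered from the longest common stretch (2871 nt) at the top to the shortest (328 nt). Summits lay inside the site in all 3 libraries in 58 of 66.

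The summits of all 3 libraries fell inside the site at 58 of 66 shared sites (87.9%), against 76.6% of all 320 sites and 79.2% of the 192 sites in the window of 1 gene. At 41 shared sites the summits lay within a span of under 100 nt, and at 8 the span exceeded 200 nt. *TLP10* and AT1G25275 had the widest span, 672 nt, at a site with 2.22, 1.92 and 1.91, where the summit of replicate 3 lay before the *TLP10* window. A −log10 q above 3 in all 3 libraries was reached by 65 of 66 shared sites. It was also reached by 95.6% of all sites and by 192 of 192 sites of 1 gene. Above 4 lay 59 shared sites (89.4%), 83.4% of all sites and 172 of 192 sites of 1 gene. The study listed genes only for peaks with a −log10 q above 3 in all 3 ATH1-GFP libraries. Sites inside listed windows were thus largely bound to pass 3, while 54 of the 320 sites lay in no window. These shares also use the same peak calls that chose the sites and are given as a description.

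Replicate 3 had the lowest fold enrichment at 57 of 66 shared sites (86.4%), against 90% of all sites, so the order of libraries was that of the whole data set. Replicate 2 was the lowest at 7 and replicate 1 at 2, and the highest value came from replicate 1 at 42 sites and from replicate 2 at 23. Across the 66 sites, Pearson's r of fold enrichment was 0.88 between replicates 1 and 2, 0.82 between 1 and 3 and 0.77 between 2 and 3, and Spearman's rho was 0.68, 0.55 and 0.49. Across the 192 sites of 1 gene, r was 0.93, 0.92 and 0.90 and rho 0.79, 0.75 and 0.70 for the same library pairs, higher in each. Sites share the libraries, their depth and their mappability, so these values only describe the agreement between libraries, rho in rank. Pearson's r also depends on the range of values, which in replicate 1 reached 6.22 at shared sites and 7.34 at sites of 1 gene. AT2G01990/*GAD3* and *PLA2A*/*WEB1* were the highest 2 shared sites in each of the 3 libraries.

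Wild-type peaks lay far from most shared sites, with a median distance of 46510.5 nt. The median was 52556 nt for all 320 sites and 60200.5 nt for the 192 sites of 1 gene. A wild-type peak lay within 1000 nt of 4 shared sites, of 24 of all sites and of 16 sites of 1 gene. The site of AT1G77940, a ribosomal protein gene of the L30e family, and AT1G77932, a DUF3049 gene, was 47 nt long, gave 2.20, 1.92 and 1.90, and lay 261 nt from a wild-type peak. No summit fell inside it, and in 2 of 3 libraries the ATH1-GFP peak touched a wild-type peak elsewhere along its length. The same held for the 46-nt site of *SMT2* and *DRT112*, 78 nt from a wild-type peak. Such contact concerned 2 of 66 shared sites and 4.69% of all sites, and without both sites 64 shared sites and 122 members would remain. *MTO3*, a methionine adenosyltransferase gene, and AT3G17400, an F-box gene, had 2.19, 2.36 and 1.89 at a site 359 nt from a wild-type peak. Without the wild-type exclusion 79 sites would have been shared, and 13 of these touched a wild-type peak, 8 of them in a single library. That is 16.5%, against 39.8% of the 319 sites in 1 window counted without the exclusion. Of all 743 stretches under peaks of the 3 ATH1-GFP libraries, 43.1% were free of wild-type peaks. These shares do not compare like with like. Sites with a gene left out by name were removed from the 79 only, and the study chose its list against wild-type peaks. The effect of either was not tested.

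The table of targets gives each gene an average fold enrichment computed by the authors, and in 60 of 65 pairs both genes carry the same value, within 0.0001. The values differ in the other 5 pairs: *CESA5* beside AT5G09876, AT3G49810 beside AT3G49820, *CIPK15* beside *SR1*, *HB25* beside AT5G65400, and *SMT2* beside *DRT112*. *CESA5*, AT3G49810 and *CIPK15* carry the mean of the stronger of the sites that they share. For 59 pairs the value of both genes equals the mean of their strongest shared site, and the exception among pairs of equal value is AT1G77940 and AT1G77932, both listed at 1.37 against a site mean of 2.01.

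Shared sites were compared with sites in the window of 1 gene, to see whether a site shared by 2 listed genes is bound as strongly. The median fold enrichment of the 66 shared sites was 2.49, 2.39 and 1.95 in replicates 1, 2 and 3. For the 192 sites of 1 gene it was 2.59, 2.46 and 1.97. The sets were not filtered alike, here and in every comparison of them: sites with a gene left out by name were removed from the shared sites only. The sites of 1 gene still held AT2G34825, AT3G22190 and AT3G15170, which are among the genes left out by name, with means of 6.06, 6.01 and 5.26. The effect of this on the difference was not tested. Shared sites were lower in 3 of 3 libraries, with differences of -0.0962, -0.0685 and -0.0195 and a mean over the 3 libraries of -0.0614 ± 0.0389 (SD). The exact permutation test, two-sided and made by flipping signs over the libraries, gave p = 0.25, the smallest value that 3 libraries allow (0.5 after Benjamini-Hochberg adjustment over 4 comparisons), so a difference is not shown. Means above 3 were reached by 7 of 66 shared sites and by 38 of 192 sites of 1 gene. The unlike filter acts on these counts as well, so they do not compare like with like.

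**Figure D4:**
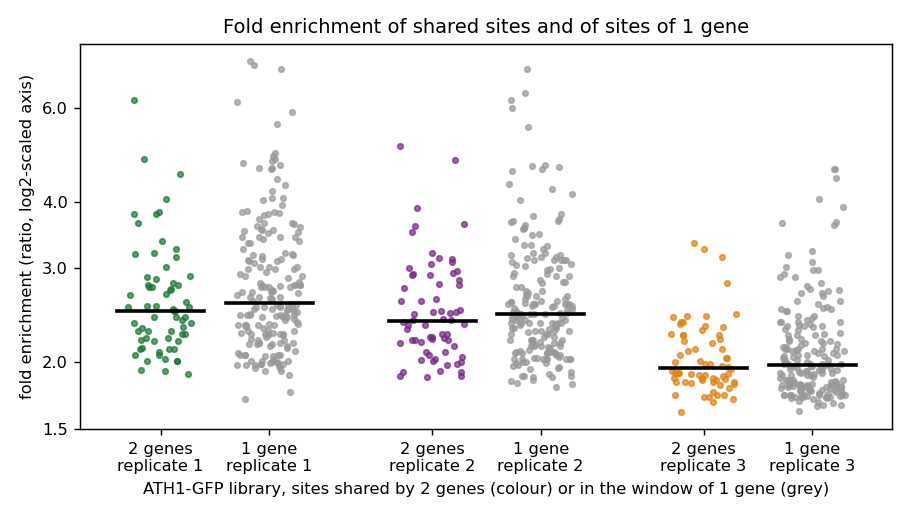
Fold enrichment of the 66 sites shared by 2 genes (colored) and the 192 sites in the window of 1 gene (grey) in each ATH1-GFP library, on a log2-scaled axis. Each point is a site and the black bars are medians, which were 2.49, 2.39 and 1.95 for shared sites and 2.59, 2.46 and 1.97 for the others. The ranges of both kinds of site overlapped in every library. Sites with a gene left out by name were removed from the shared sites only.

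The pileup, the number of extended tags at the summit, followed the same direction, with medians of 92, 87 and 106 tags at shared sites and 99, 90 and 107 at sites of 1 gene. It was lower at shared sites in 3 of 3 libraries, with p = 0.25 in the exact sign-flip permutation test (adjusted p = 0.5). Median peak length was 477, 438 and 410.5 nt at shared sites against 516, 478 and 437 nt, given without a test because a site had to fit inside 2 windows at once, a rule that acts on length. Among the shared sites, the 16 with a transcription factor gene were compared with the other 50. The medians were 2.40, 2.49 and 1.89 with such a gene and 2.50, 2.36 and 1.97 without, lower in replicates 1 and 3 and higher in replicate 2, with a mean over the 3 libraries of -0.0182 ± 0.133 (SD, exact sign-flip permutation p = 1). The highest mean among the 16 sites with a transcription factor gene was 2.99, and the 7 sites above 3 were among the other 50. The cut at 3 lies just above 2.99, and this split was not tested.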

How the data were processed

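ChIP-seq peak lists of 6 libraries were used, 3 from ATH1-GFP and 3 from wild-type plants (50-nt single-end reads per the labels). Bowtie2, SAMtools and MACS2 are named in the submitters' processing notes, on TAIR10. Per the file headers, the authors ran MACS 2.0.10.20130915 on each library without a control, with tags extended to 300 nt, 1 tag per position and a q cutoff of 0.05. The fold enrichment in the deposited lists is a ratio to local background, the pileup a signal in tags not scaled for depth, and the −log10 p and −log10 q values were also computed by the authors with MACS. The deposited table of targets gives the authors' averages and gene windows, which reach 3000 nt upstream and 1500 nt downstream of coding sequences and were cut by the study at intervening genes.

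Sites were found from every deposited peak and checked base by base (320 of 320 identical). In each library the peak with the longest overlap gave the value of a site. Python 3.11.15, numpy 2.4.6, pandas 2.3.3 and scipy 1.17.1 were used, and the steps were tested on simulated data. Libraries, not sites, were the replicates in two-sided exact sign-flip permutation tests. Enrichment values of wild-type peaks were not compared with those of ATH1-GFP. Members and gene lists were chosen with earlier results of these data known. Genes were named for the 10 highest and 5 lowest sites and for lists of regulators, hormones, peptides and development. Others were chosen after their values were seen. Symbols came from the RefSeq table (123 of 125 members matched). Planned comparisons of gene orientation, sequence motifs and protein identity needed a genome and were not run. The p-values come from flipping the signs of the differences within the 3 ATH1-GFP libraries and do not measure the spread between libraries.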

Additional observations from a re-analysis of the deposited data

How the results depend on the processing

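The number of shared sites (66) and of member genes (125) stayed within 1.5 times of these values under 13 of 14 and 14 of 15 alternatives. Counting a site that overlaps a window by at least 1 nt, in place of lying wholly inside it, gave 138 sites and 266 genes. Leaving out 1 library at a time gave 59 to 72 sites and 111 to 134 genes. The mean difference between shared sites and sites of 1 gene stayed negative under 17 of 17 alternatives, with exact sign-flip permutation p between 0.25 and 0.5. Shared sites were lower in only 2 of 3 libraries with peaks of at least 2 ATH1-GFP libraries (mean -0.0165). The same held without wild-type replicate 2 (mean -0.0382). Leaving out 1 library gave mean differences between -0.0688 and -0.0330. All of these alternatives kept the unlike filter on genes left out by name. The difference between sites with and without a transcription factor gene changed sign under 4 of 17 alternatives, to 0.0669 when a site need only overlap a window and to 0.0520 with peaks of at least 2 ATH1-GFP libraries, and its range when 1 library was left out was -0.0625 to 0.0337 (0.0337 without ATH1-GFP replicate 1 and 0.0216 without replicate 3), with p between 0.25 and 1 over all alternatives. The cause was not tested. An alternative chosen after seeing the data dropped every site whose ATH1-GFP peaks touch a wild-type peak anywhere, and left 64 sites and 122 genes. No paired analysis was possible because the replicate numbers are shared only between ATH1-GFP and wild type, which no test compares, and the tests made already take differences within each ATH1-GFP library. The planned comparison of sites between divergent and tandem genes was not run, since gene orientation was not used here. Peaks missed in the shallow wild-type libraries, and reads from near-identical copies, limit single sites.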
